A study of Mus musculus with 12 samples.

Results

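SOS1 and SOS2 are paired guanine nucleotide exchange factors, and the comparison described here sets mouse embryonic fibroblasts that lost one of them against fibroblasts that lost the other. Its members are the 3 Sos1KO arrays and the 3 Sos2KO arrays, chosen by sample title, out of 12 arrays in the series. The difference Sos1KO minus Sos2KO was computed for all 19505 genes with a gene symbol. It equals the difference between the effects of the single deletions against WT, because the WT mean cancels.

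Primary (low passage) fibroblasts of the C57/BL6 strain came from embryos at day 13.5 and were cultured in serum. The groups were Sos1KO, Sos2KO, Sos1/2DKO and WT, with 3 arrays each. Every group, WT included, received 4-hydroxytamoxifen for 12 days, so no untreated culture enters any comparison. RNA was taken from subconfluent, actively growing cells and measured on Affymetrix arrays as log2 RMA levels. The alleles, the driver of any Cre recombinase and the embryo or litter behind each culture are not given in the sources used here, so a p-value here reflects only how far these cultures differ.

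SOS proteins are brought to activated receptor tyrosine kinases by the adaptor GRB2, load RAS with GTP and so start the RAF, MEK and ERK kinase cascade. They can also act as exchange factors for RAC. In growing fibroblasts, ERK signalling is known to drive the early response genes and, through the D cyclins and the RB-E2F switch, the genes of DNA replication.

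The deleted genes matched the labels. Sos1 had 7.31, 7.13 and 7.37 in Sos1KO cells, against 8.77, 8.78 and 9.38 in Sos2KO cells. Its difference was -1.70 (log2, SE 0.22, adjusted p = 0.00973, limma with Benjamini-Hochberg adjustment over all genes). Sos2 had 8.84, 8.76 and 9.05 in Sos1KO cells, against 7.56, 7.73 and 7.93 in Sos2KO cells, a difference of 1.15 (SE 0.18, adjusted p = 0.0157). No array of either group overlapped the other group for these genes, as for 25.9% of all genes. In WT cells both transcripts lay with the undeleted group, at a mean of 9.08 for Sos1 and 8.88 for Sos2.

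Array controls stood apart on single arrays, and the macrophage marker means did not overlap between the groups. The poly-A spike-in transcript Dap read 9.29 on Sos1KO replicate 3 and 4.06 and 4.12 on the other Sos1KO arrays, against 8.16, 8.29 and 6.01 on the Sos2KO arrays, while no WT array was above 3.98. The high-GC background probes lay between 7.55 and 7.93 on Sos1KO arrays, against 8.74, 8.89 and 7.85 on Sos2KO arrays. The mean of the 14 measured macrophage markers lay between 6.46 and 7.52 in Sos1KO cells, against 4.97 to 6.07 in Sos2KO cells. By Y-linked genes, Sos1KO replicate 2 and Sos2KO replicates 1 and 3 came from male embryos. Of the 8 measured fibroblast markers, 4 differences were above and 4 below 0 and none was called by limma. Col1a1 had a mean of 12.13 in Sos1KO and 11.90 in Sos2KO cells, and Twist2 had 7.88 in Sos1KO and 9.28 in Sos2KO cells (-1.40, adjusted p = 0.0755). Pairwise correlations between arrays were 0.977 to 0.988 within Sos1KO, 0.973 to 0.980 within Sos2KO and 0.947 to 0.980 between the groups.

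**Figure D1:**
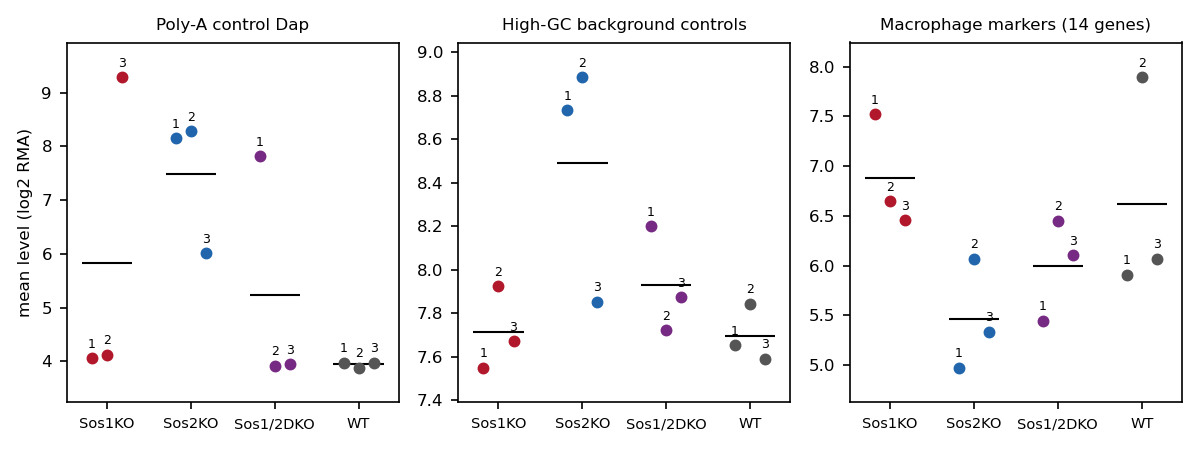
Mean log2 RMA level per array of the poly-A control Dap, the high-GC background controls and the 14 macrophage markers; points are arrays, digits are replicate numbers and lines are group means. Sos2KO replicates 1 and 2 had the highest background readings, 8.74 and 8.89, and the macrophage mean of every Sos1KO array was above that of every Sos2KO array.

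Between Sos1KO and Sos2KO cells, 836 of 19505 genes (4.29%) differed at an adjusted p under 0.05. Of these, 546 (2.8% of all genes) were higher and 290 (1.49%) were lower in Sos1KO cells. The median log2 difference was 1.06 among the higher genes and -0.92 among the lower ones. A change of at least 2-fold was seen in 418 genes, 304 higher and 114 lower. The arrays of the groups did not overlap for 832 of the 836 genes, and they did not overlap for 25.9% of all genes. Over all genes, 4074 (20.9%) had an unadjusted p under 0.05. After cyclic loess normalization the split was 502 higher to 407 lower, and after median centring it was 374 to 286.

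Sos2KO replicate 3 was the Sos2KO array nearest to the Sos1KO level for 426 of the 546 higher genes and 148 of the 290 lower genes. The number of calls rested on single arrays. Without Sos1KO replicate 2 it was 3, without Sos1KO replicate 3 it was 24, without Sos2KO replicate 1 it was 18 and without Sos2KO replicate 2 it was 12, whereas without Sos2KO replicate 3 it was 1870. With both Sos2KO replicates 1 and 2 left out, limma called 0 genes, and 1697 had an unadjusted p under 0.05. A term for the high-GC background left 1 call and a term for the macrophage level left 0. With the macrophage term Sos1 differed by -1.78, Foxp2 by 4.42, Npr3 by 2.83 and Crabp1 by -3.57, but Lyz2 by 1.19 and Spi1 by 0.90. Of 77 called named genes, 58 stayed within 1.5 times their log2 difference with the high-GC term and 19 became smaller. The 19 were Adgrg2, Cox4i1, Fasn, Fdps, Fos, Gla, H2bc18, Id1, Id2, Lamp2, Lss, P4ha1, Pik3ip1, Psph, Rasal2, Sfrp1, Slc7a2, Tgfb2 and Uqcrc1. With the macrophage term 71 stayed within that limit and 6 became smaller, namely Cdc20, Eps8, Fosl1, Lilrb4a, Lyz2 and Spi1. Without Sos2KO replicates 1 and 2 together 56 stayed within that limit and 21 became smaller. The 21 were Adgrg2, Bmp4, Cox4i1, Fasn, Fdps, Fos, Foxf1, Gla, Id1, Lamp2, Lss, P4ha1, Pik3ip1, Plagl1, Rasal2, Rspo3, Sema3a, Sema3b, Sfrp1, Slc7a2 and Tgfb2. No called named gene became larger by over 1.5 times in any of these settings. With the arrays split at the gap in the Dap signal, 12 genes were called with the split as a term and 182 within the arrays that carried Dap, which hold 1 Sos1KO array. Each call below carries these limits. No called named gene changed direction under any of these settings. Nearly all were chosen with arrays that do not overlap, and for those, leaving out or splitting arrays cannot reverse the difference. The part of background, spike-in and macrophage level in the calls was not tested further.

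**Figure D2:**
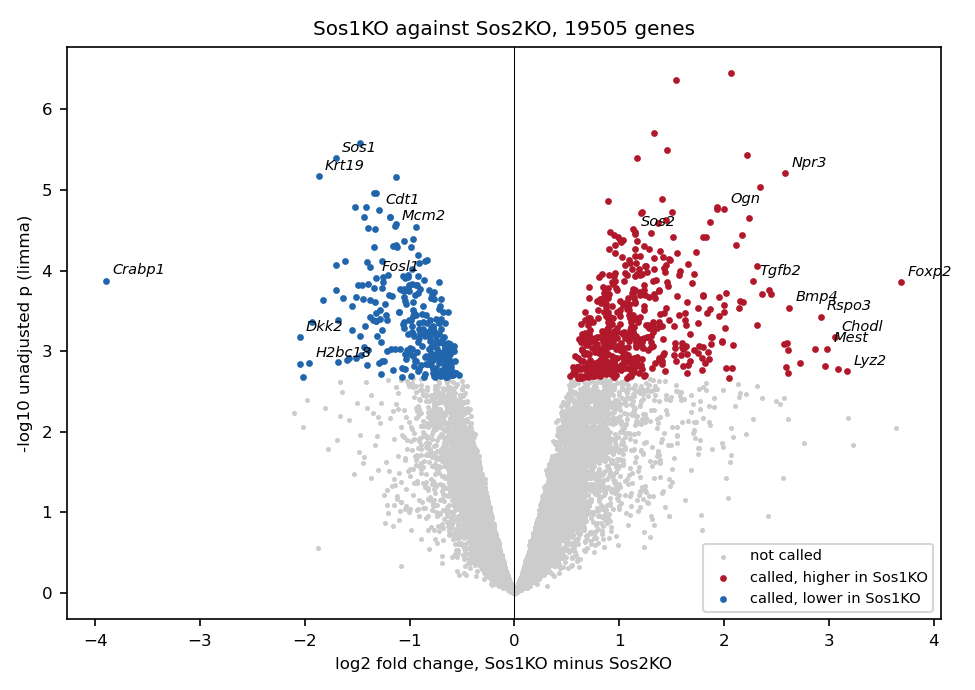
Log2 fold change (Sos1KO minus Sos2KO, horizontal) against -log10 of the unadjusted limma p (vertical) for 19505 genes; red genes were called higher and blue genes lower in Sos1KO cells. Crabp1 at -3.89 and Foxp2 at 3.69 lie at the ends, and Sos1 is among the smallest p-values.

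Foxp2 and Crabp1 had the largest called differences in each direction. Foxp2, a forkhead transcription factor, had 7.96, 10.06 and 10.85 in Sos1KO cells, against 5.69, 5.49 and 6.63 in Sos2KO cells, a 12.9-fold difference (log2 3.69, SE 0.69, adjusted p = 0.0201). Crabp1, a cytosolic retinoic acid binding protein, had 7.85, 5.88 and 6.16 in Sos1KO cells, against 10.38, 11.65 and 9.53 in Sos2KO cells, 14.9-fold lower (log2 -3.89, SE 0.72, adjusted p = 0.0201). For both genes Sos1KO replicate 1 was the Sos1KO array nearest to the Sos2KO arrays. Npr3, the clearance receptor of natriuretic peptides, had 10.04, 10.90 and 11.12 in Sos1KO cells, against 8.38, 7.36 and 8.58 in Sos2KO cells (log2 2.58, adjusted p = 0.0122). The groups lay more than 1 log2 unit apart at their nearest arrays for this gene.

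Others among the 14 highest genes were Chodl, a membrane C-type lectin (3.06), Slc7a2, a cationic amino acid transporter (2.60, with 2 of 3 Sos2KO readings under the 75th percentile of the array's intron control probes), and Adgrg2, an adhesion G protein-coupled receptor (2.59). Rgs5, a regulator of G protein signalling known from pericytes, had 7.17, 9.59 and 8.35 in Sos1KO cells, against 5.33, 5.44 and 6.17 in Sos2KO cells (2.72, adjusted p = 0.0418). It was the called member among 6 measured mural cell markers, whose median difference was -0.05.

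Among the 14 lowest genes, Krt19, an intermediate filament protein of simple epithelia, had 4.75, 4.81 and 4.96 in Sos1KO cells, against 7.21, 6.46 and 6.44 in Sos2KO cells. Its difference was -1.87 (adjusted p = 0.0122). All Sos1KO readings lay under the same intron control percentile, so Krt19 was at least 2.45-fold lower in Sos1KO cells, a bound that was not itself tested. The bound sets the Sos2KO mean against that percentile on each Sos1KO array. Crmp1, a phosphoprotein of semaphorin signalling, differed by -2.04, and Tfpi2, a Kunitz-type protease inhibitor, by -2.02. Fez1, a kinesin adaptor, differed by -1.70, and so did Gas7, named for its expression in growth-arrested cells. In Crmp1 and Tfpi2, Sos1KO replicate 1 read 7.49 and 7.56, within 1 log2 unit of the lowest Sos2KO array, while 1 of the other Sos1KO readings of each lay under the intron control percentile.

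**Figure D3:**
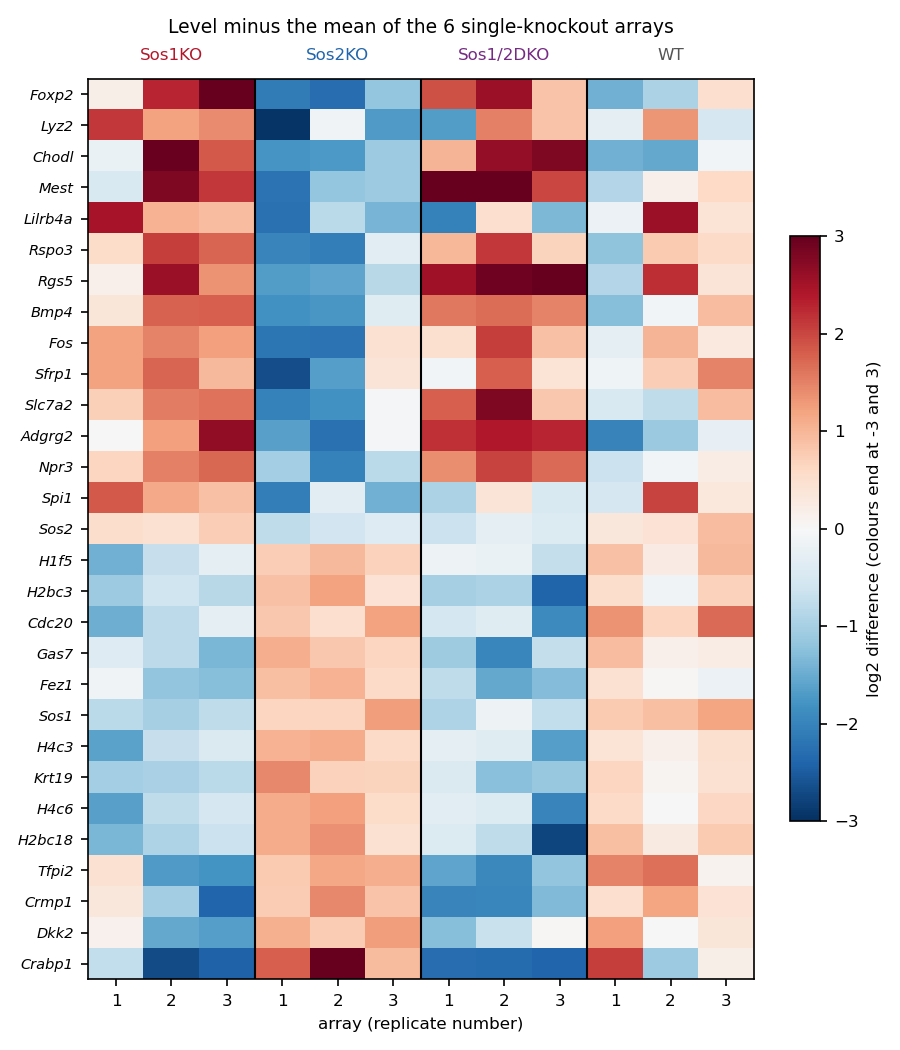
Log2 level of the 14 highest and 14 lowest called genes plus Sos2 on each of the 12 arrays (columns, by group and replicate), minus the gene's mean over the 6 Sos1KO and Sos2KO arrays; red is higher, blue lower. Sos2KO replicate 3 is paler than replicates 1 and 2 for many of the upper genes, such as Fos and Sfrp1, and the Sos1/2DKO columns resemble the Sos1KO columns for Foxp2, Chodl, Mest and Crabp1.

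Within the RAS-ERK pathway, 2 of 18 measured RAS activators and inhibitors rose, together with 2 of 13 kinases and adaptors, and none of either list fell. Over all genes, 2.8% rose and 1.49% fell. Braf, the RAF kinase that phosphorylates MEK, had 9.07, 9.54 and 9.93 in Sos1KO cells, against 7.96, 7.78 and 8.46 in Sos2KO cells (log2 1.45, SE 0.26, adjusted p = 0.0186). The adaptor gene Gab1, which docks SHP2 and PI3K at receptors, differed by 1.12 (adjusted p = 0.0428). Rasal2, a RAS GTPase-activating protein, differed by 1.64, and Rasgrp3, another RAS exchange factor, by 1.31. The list medians were 0.02 for activators and inhibitors and 0.14 for kinases and adaptors, against -0.03 over all genes.

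Of 27 measured transcripts known as ERK targets or feedback genes, 1 rose and 2 fell, against 2.8% and 1.49% of all genes. The list median was -0.40. Fosl1, which encodes the AP-1 subunit FRA1 and is induced by sustained ERK activity, had 7.84, 7.65 and 7.62 in Sos1KO cells, against 9.31, 8.76 and 9.005 in Sos2KO cells (log2 -1.32, SE 0.24, adjusted p = 0.0195). Etv4, an ETS factor of the PEA3 group, had 6.89, 6.62 and 6.48 in Sos1KO cells, against 8.01, 8.03 and 7.79 in Sos2KO cells (-1.29, adjusted p = 0.0265). For both, each Sos1KO array was below each Sos2KO array by more than 0.5. With the macrophage term Fosl1 differed by -0.87.

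Fos, an immediate early AP-1 gene, went the other way. It had 9.74, 10.02 and 9.76 in Sos1KO cells, against 6.37, 6.32 and 8.98 in Sos2KO cells (2.61, SE 0.61, adjusted p = 0.0353). The low Sos2KO values were on replicates 1 and 2, the arrays with the high background readings, and replicate 3 lay with the WT arrays, which read 8.24, 9.54 and 8.83. The Fos difference was 0.92 with the high-GC term (adjusted p = 0.765) and 0.86 without Sos2KO replicates 1 and 2.

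In the RAC list, 1 of 18 measured genes fell and none rose, a share near the 4.29% called over all genes. Eps8, a scaffold that couples SOS1 to RAC activation and caps actin filaments, had 8.02, 7.95 and 7.30 in Sos1KO cells, against 9.28, 8.94 and 8.79 in Sos2KO cells (-1.25, adjusted p = 0.0406, and -0.79 with the macrophage term). None of 24 receptor tyrosine kinases was called by limma. Unadjusted p-values under 0.05, which 20.9% of all genes had, were found for 8 of them, 7 higher, and Ror1 came nearest to a call at 1.54 (adjusted p = 0.0565).

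Part of the DNA replication list was called lower in Sos1KO cells. The median of the 23 measured replication and E2F genes was -0.65. Of these, 6 fell and none rose, against 1.49% and 2.8% of all genes. Differences were below 0 for 22 of them, and for 10588 of all 19505 genes. The median was -1.05 with the high-GC term and -0.41 with the macrophage term. Cdt1 and the MCM proteins license replication origins, GINS2 belongs to the replicative helicase and RRM2 is the small subunit of ribonucleotide reductase. The promoters of 3 of the fallen genes are shown because they hold an E2F-type motif, and that of Mcm2 because it does not. Each is 250 bases before to 50 bases after the RefSeq start in GRCm38.p6, read 5′ to 3′ on the gene's strand. Capitals mark the motifs TTTCCCGC and TTTGGCGC, searched on both strands.
Cdt1 (chr8:122567765-122568064, plus strand): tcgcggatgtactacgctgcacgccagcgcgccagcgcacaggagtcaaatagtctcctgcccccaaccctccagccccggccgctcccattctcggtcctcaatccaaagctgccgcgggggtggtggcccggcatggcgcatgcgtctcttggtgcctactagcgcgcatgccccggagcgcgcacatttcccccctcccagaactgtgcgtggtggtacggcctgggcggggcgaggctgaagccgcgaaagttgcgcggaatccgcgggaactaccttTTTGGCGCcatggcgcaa
Mcm3 (chr1:20820263-20820562, minus strand): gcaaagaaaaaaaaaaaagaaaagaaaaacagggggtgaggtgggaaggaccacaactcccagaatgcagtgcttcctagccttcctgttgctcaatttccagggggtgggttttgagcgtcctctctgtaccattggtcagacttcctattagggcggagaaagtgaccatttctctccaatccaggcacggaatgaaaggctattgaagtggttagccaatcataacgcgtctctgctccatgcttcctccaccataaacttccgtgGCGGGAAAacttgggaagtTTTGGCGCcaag
Mcm6 (chr1:128359656-128359955, minus strand): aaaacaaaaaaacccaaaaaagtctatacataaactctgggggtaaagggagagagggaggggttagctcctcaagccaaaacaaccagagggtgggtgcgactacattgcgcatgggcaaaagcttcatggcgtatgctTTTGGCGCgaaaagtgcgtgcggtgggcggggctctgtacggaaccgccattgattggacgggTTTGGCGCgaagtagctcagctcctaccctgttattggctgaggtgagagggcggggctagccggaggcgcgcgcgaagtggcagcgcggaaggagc
Mcm2 (chr6:88898731-88899030, minus strand): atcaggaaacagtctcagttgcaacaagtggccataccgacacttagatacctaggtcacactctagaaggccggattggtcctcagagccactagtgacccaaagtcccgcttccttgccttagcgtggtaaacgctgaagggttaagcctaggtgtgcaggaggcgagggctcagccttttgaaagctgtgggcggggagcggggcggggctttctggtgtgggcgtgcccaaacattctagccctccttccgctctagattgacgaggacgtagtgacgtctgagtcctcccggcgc
A match was found in 3 of the 5 fallen genes with a promoter entry, in 4 of 13 other replication genes with an entry, and in 514 of 32851 promoters overall (1.56%). These matches describe the letters only.

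Cdt1 had 6.96, 6.54 and 7.03 in Sos1KO cells, against 8.04, 8.12 and 8.23 in Sos2KO cells (log2 -1.29, SE 0.19, adjusted p = 0.0149). Mcm2 had 7.44, 7.67 and 7.31 in Sos1KO cells, against 8.45, 8.53 and 8.86 in Sos2KO cells (-1.14, SE 0.18, adjusted p = 0.0157). Gins2 had 6.29, 6.43 and 6.39 in Sos1KO cells, against 7.34, 7.24 and 7.36 in Sos2KO cells (-0.94, SE 0.15, adjusted p = 0.0157). The replicates of these genes lay close together, with SDs of at most 0.26, so differences near 2-fold were called. Rrm2 differed by -1.21, Mcm6 by -1.55 and Mcm3 by -0.96. The groups did not overlap for any of the 6, as for 832 of the 836 called genes. A further 9 list members were lower at an unadjusted p under 0.05 and were not called. Such a p-value, in either direction, was found for 20.9% of all genes.

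Of 23 G2/M and spindle genes, 2 fell, against 1.49% of all genes. All 23 had differences below 0, as had 10588 of all 19505 genes. The list median was -0.80, -0.36 with the macrophage term and -1.42 with the high-GC term. Aurka, the centrosomal mitotic kinase, had 6.37, 7.23 and 7.34 in Sos1KO cells, against 8.19, 8.14 and 8.82 in Sos2KO cells (-1.40, adjusted p = 0.0351). Cdc20, whose product switches on the anaphase-promoting complex, had 5.88, 6.56 and 7.06 in Sos1KO cells, against 8.16, 7.84 and 8.55 in Sos2KO cells (-1.68, adjusted p = 0.041, and -1.001 with the macrophage term). For Cdc20 and Aurka the lowest reading was on Sos1KO replicate 1. The list median was -0.08 within the Dap-positive arrays of the planned split, which hold 1 Sos1KO array and Sos2KO replicates 1 and 2, and -1.67 within the other arrays. No CDK inhibitor or p53 target among 19 was called by limma, and 6 had an unadjusted p under 0.05, as had 20.9% of all genes.

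Replication-dependent histone genes made up 5 of the 14 lowest genes. H2bc18 differed by -1.96, H4c6 by -1.93, H4c3 by -1.82, H2bc3 by -1.68 and H1f5 by -1.61. H4c6 had 7.84, 8.71 and 8.97 in Sos1KO cells, against 10.58, 10.71 and 10.01 in Sos2KO cells (adjusted p = 0.027). The core histone genes have near-identical copies, so a probe set of this family may report several of them.

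Of 19 ATF4 and unfolded protein response genes, 4 fell and 1 rose, against 1.49% and 2.8% of all genes. The list median was -0.08. The 4 that fell were Phgdh, Psat1 and Psph, the enzymes of serine synthesis, and Shmt2, which converts serine to glycine in mitochondria. Shmt2 had 9.07, 8.66 and 8.41 in Sos1KO cells, against 9.90, 10.33 and 10.27 in Sos2KO cells (-1.46, SE 0.27, adjusted p = 0.0205). Phgdh had 9.43, 9.60 and 9.38 in Sos1KO cells, against 10.46, 10.46 and 10.65 in Sos2KO cells (-1.05, adjusted p = 0.0206). Psat1 differed by -1.05 and Psph by -0.95. The gene that rose was Dnajb9, a chaperone cofactor of the endoplasmic reticulum (1.12, adjusted p = 0.0428).

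Of 17 cholesterol and fatty acid genes, 3 fell, 15 lay below 0 and the median was -0.63. Of all 19505 genes, 1.49% fell and 10588 lay below 0. Lss, lanosterol synthase, had 8.85, 8.42 and 8.05 in Sos1KO cells, against 9.73, 10.24 and 9.13 in Sos2KO cells (-1.26, adjusted p = 0.0295, and -0.70 with the high-GC term). Fdps, farnesyl diphosphate synthase, differed by -1.27 and Fasn, fatty acid synthase, by -0.85. Their mean levels in WT cells, 9.01 for Lss, 8.24 for Fdps and 9.03 for Fasn, were between those of the single knockouts.

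Of 22 oxidative phosphorylation genes, 3 fell, against 1.49% of all genes, and the list median was -0.12. The 3 were Ndufv1 of complex I (-0.75), Uqcrc1 of complex III (-0.88) and Cox4i1 of complex IV (-0.75). Among 16 mitochondrial dynamics and biogenesis genes, 1 rose and 1 fell, against 2.8% and 1.49% of all genes. Mff, the receptor that recruits DRP1 for fission, rose by 0.71, and the fusion GTPase gene Mfn2 fell by 0.68 on the log2 scale. Mfn2 had 8.47, 8.38 and 8.32 in Sos1KO cells, against 9.05, 9.08 and 9.10 in Sos2KO cells (adjusted p = 0.0444). For Mff and Mfn2 the groups did not overlap, as for 832 of the 836 called genes. The prolyl hydroxylase subunit gene P4ha1 rose by 0.88, as the called member of 23 glycolysis and hypoxia genes, a share near the 4.29% over all genes. Of 21 lysosome and autophagy genes, 3 rose and none fell, against 2.8% and 1.49% of all genes. The 3 were the protease Ctsl (1.03), the membrane protein Lamp2 (0.70) and the galactosidase Gla (0.81). With the high-GC term the log2 differences of Uqcrc1, Cox4i1, P4ha1, Lamp2 and Gla became smaller by over 1.5 times. All of these but Uqcrc1 also did so without Sos2KO replicates 1 and 2. Ndufv1, Mff, Mfn2 and Ctsl stayed within 1.5 times in both settings.

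In the TGF-beta, BMP and ID list, 4 of 25 genes rose and 1 fell, against 2.8% and 1.49% of all genes. The list median was 0.39. Bmp4 had 10.56, 11.97 and 12.00 in Sos1KO cells, against 8.39, 8.45 and 9.84 in Sos2KO cells (2.62, SE 0.53, adjusted p = 0.0238). Tgfb2 had 10.17, 10.54 and 10.96 in Sos1KO cells, against 8.26, 7.34 and 9.25 in Sos2KO cells (2.28, SE 0.42, adjusted p = 0.0201). Id1 and Id2, inhibitors of basic helix-loop-helix factors and known BMP targets, differed by 1.39 and 1.75. Tgfb1 went the other way at -1.09 (adjusted p = 0.0349), with 9.58, 9.23 and 8.83 in Sos1KO cells, against 9.99, 10.23 and 10.69 in Sos2KO cells. Sos2KO replicate 3 was the Sos2KO array nearest to the Sos1KO level for Bmp4, Tgfb2, Id1 and Id2. With a term for the high-GC background the list median was -0.08 and Tgfb2 differed by 1.41, and without Sos2KO replicates 1 and 2 Bmp4 differed by 1.68.

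Of 25 WNT ligands and modulators, 2 rose and 1 fell, against 2.8% and 1.49% of all genes. The list median was 0.02. Rspo3, a secreted enhancer of WNT signalling, had 9.39, 10.92 and 10.60 in Sos1KO cells, against 6.85, 6.77 and 8.52 in Sos2KO cells (2.92, adjusted p = 0.026, and 1.78 without Sos2KO replicates 1 and 2). The WNT-binding antagonist Sfrp1 differed by 2.61, its Sos2KO arrays spread from 6.48 to 9.52, and with the high-GC term the difference was 0.89. Dkk2, a modulator of the LRP co-receptors, had 6.44, 4.79 and 4.66 in Sos1KO cells, against 7.40, 7.07 and 7.57 in Sos2KO cells (-2.05, adjusted p = 0.0313), and 2 of its Sos1KO readings lay under the intron control percentile.

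The IGF and imprinted growth list had 3 of 19 genes that rose and none that fell, with a median of 0.62. Over all genes, 2.8% rose and 1.49% fell. Mest, a paternally expressed gene of the hydrolase fold family, had 9.79, 13.03 and 12.37 in Sos1KO cells, against 8.02, 9.09 and 9.14 in Sos2KO cells (2.98, adjusted p = 0.0349). Plagl1, an imprinted zinc finger factor, differed by 1.84 (adjusted p = 0.0248). Igfbp2, an IGF-binding protein, differed by 2.87, but its lowest Sos1KO array, 9.99, was below the highest Sos2KO array, 10.06. Class 3 semaphorins, secreted guidance cues, accounted for the 4 of 27 axon guidance genes that rose, against 2.8% of all genes, and none fell. Sema3c differed by 2.01, Sema3f by 1.59, Sema3b by 1.43 and Sema3a by 1.04.

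The matrix lists were called at shares near the 4.29% over all genes. Ogn, the small leucine-rich proteoglycan osteoglycin, had 12.41, 12.68 and 12.57 in Sos1KO cells, against 10.16, 10.80 and 10.70 in Sos2KO cells, a 4-fold difference (log2 2.00, SE 0.30, adjusted p = 0.0149). It was the called member of 26 matrix glycoproteins and proteoglycans, whose median was 0.54. Of the 26, 20 lay above 0, as did 8917 of all 19505 genes. An unadjusted p under 0.05 was found for 10 of the 26, all higher, against 20.9% of all genes. Col11a1, a fibrillar collagen chain of cartilage, differed by 1.80 as the called member of 20 collagens. Of the 20, 5 had an unadjusted p under 0.05, 4 of them higher. None of 20 matrix proteases and inhibitors and none of 19 contractile genes was called by limma. Of them, 3 and 2 had an unadjusted p under 0.05, against 20.9% of all genes. In the remaining lists, Sesn3 (1.64) and Pik3ip1 (0.71) rose among 17 FOXO factors and targets, where 2.8% of all genes rose. Foxf1 (1.08) rose beside Foxp2 among 34 patterning factors, a share near that over all genes.

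**Figure D4:**
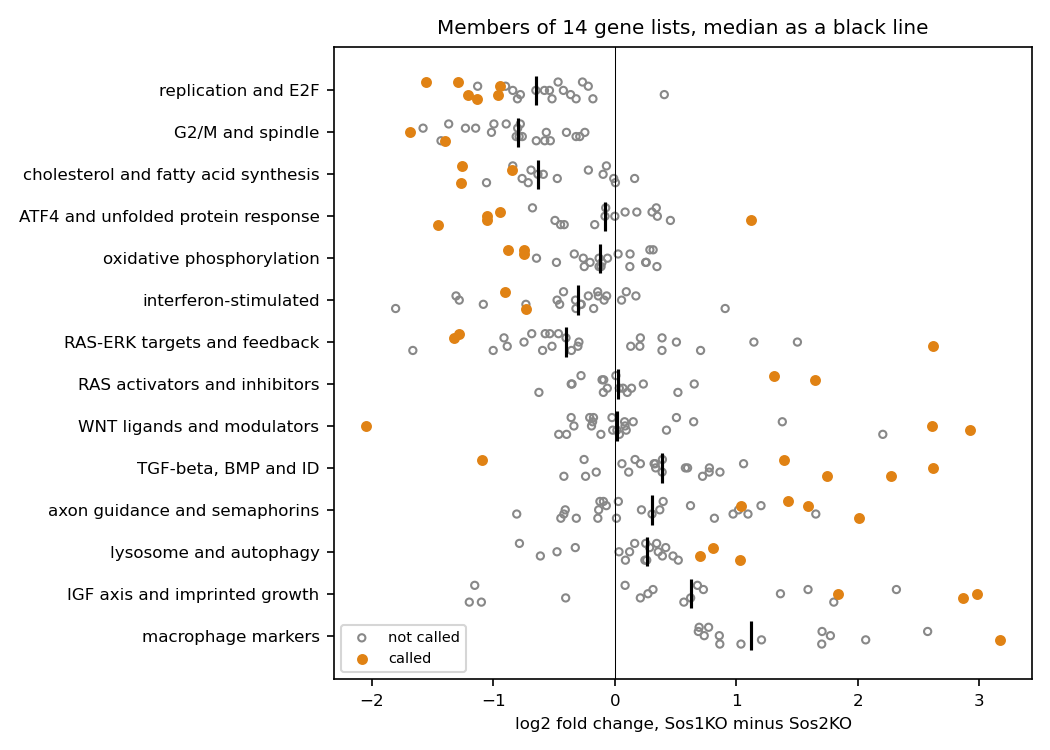
Log2 fold change (Sos1KO minus Sos2KO) of each measured member of 14 gene lists; filled orange points were called, open points were not and black lines are list medians. All 23 G2/M genes lie below 0 and all 14 macrophage markers lie above 0.

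Of the 14 measured macrophage markers, 1 was called, against 4.29% of all genes, and it was higher in Sos1KO cultures. Lyz2, macrophage lysozyme, had 10.53, 9.61 and 9.83 in Sos1KO cells, against 5.47, 8.29 and 6.70 in Sos2KO cells (3.17, SE 0.80, adjusted p = 0.0447). Spi1, the myeloid factor PU.1, had 9.17, 8.47 and 8.22 in Sos1KO cells, against 5.25, 7.01 and 5.88 in Sos2KO cells (2.57, adjusted p = 0.0333). Lilrb4a, an inhibitory receptor of myeloid cells, differed by 2.97 (adjusted p = 0.043). With the macrophage term, which is built from these markers, Lyz2 differed by 1.19 and Spi1 by 0.90. All 14 differences were above 0, 8 had an unadjusted p under 0.05 and the median was 1.12. Of all 19505 genes, 8917 lay above 0 and 20.9% had such a p-value. On all 3 Sos1KO arrays 11 markers read above the intron control percentile, against 5 on all 3 Sos2KO arrays, and Mrc1 was under it on every array of both groups. In bulk RNA, fewer macrophages and less macrophage RNA per cell cannot be told apart. The macrophage mean of the WT arrays was 5.91, 7.89 and 6.07, so 1 lay above every Sos1KO array and the others below every Sos1KO array.

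No gene of the HOX (27), inflammatory (23), NRF2 (19) or ribosomal protein (17) lists was called by limma, and 4, 5, 2 and 4 of their members had an unadjusted p under 0.05, as had 20.9% of all genes. Differences were below 0 for 16 of the 17 ribosomal protein genes, with a median of -0.24. They were below 0 for 19 HOX, 12 inflammatory and 13 NRF2 genes. Hoxa5 came nearest to a call among HOX genes at 1.22 (adjusted p = 0.0669). Of 24 interferon-stimulated genes 2 fell, against 1.49% of all genes, and 20 lay below 0, with a list median of -0.30. Ifi35 differed by -0.74 and Oas1a by -0.91 (adjusted p = 0.0293). Oas1a read under the intron control percentile on all Sos1KO arrays, which bounds it at 1.09-fold lower or more in them. The p-value belongs to the difference and not to this bound, which was not tested. Of the markers of the other cell types, no fibroblast, endothelial, skeletal muscle, chondrocyte, osteoblast, epithelial, neural, adipocyte, mesothelial or erythroid marker was called by limma. In each of these lists at most 2 markers had an unadjusted p under 0.05. Differences were below 0 for 8 of 8 endothelial, 8 of 8 skeletal muscle and 7 of 7 epithelial markers, with medians of -0.19, -0.25 and -0.26. They were above 0 for 7 of 8 chondrocyte markers, with a median of 0.83. Of all 19505 genes, 10588 lay below 0 and 8917 above. None of the 3 measured Y-linked genes was called by limma, and 0 had an unadjusted p under 0.05. The chondrocyte marker mean was 5.93, 7.12 and 7.64 in Sos1KO cells when ordered from low to high, against 6.003, 6.04 and 6.20 in Sos2KO cells.

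The WT mean was between the other means for 517 of the 546 higher genes and 231 of the 290 lower genes, and for 41.8% of all genes. Choosing genes for a wide gap between the single knockouts raises that share, so nothing is read from it. For the higher genes the median difference from WT was 0.51 in Sos1KO cells and -0.53 in Sos2KO cells. For the lower genes it was -0.70 in Sos1KO cells and 0.22 in Sos2KO cells. These differences share the WT arrays. Against WT, limma called 121 genes in Sos1KO cells and 0 in Sos2KO cells, where Sos2 itself differed by -1.14 (adjusted p = 0.278). An unadjusted limma p under 0.05 was found for 2158 genes in Sos1KO cells and for 2711 in Sos2KO cells. The 0 calls therefore do not show that Sos2KO cells differed less from WT. The WT mean was nearer to Sos2KO for 273 of the higher genes and 231 of the lower genes, and for 41.6% of all genes.

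Sos1/2DKO against WT gave a view of the same genes on arrays that the Sos1KO and Sos2KO means did not use, although RMA and the pooled spread of the fit were shared. By Y-linked genes, every Sos1/2DKO array but only WT replicate 1 came from a male embryo. Sos1/2DKO replicate 1 also read 7.82 for Dap and 8.20 for the high-GC background, above every WT array. The part of sex and of these readings was not tested beyond the sex term. That comparison called 1158 genes (5.94%), 347 higher (1.78%) and 811 lower (4.16%). Of the 290 genes lower in Sos1KO than in Sos2KO cells, 143 (49.3%, exact 95% interval 43.4 to 55.2) were also lower in Sos1/2DKO than in WT cells and none were higher. These were 17.6% of the 811. Of the 546 higher genes, 82 (15.0%, interval 12.1 to 18.3) were also higher in Sos1/2DKO cells and 2 were lower. These 82 were 23.6% of the 347. Genes are not independent, so the intervals cover counting error only.

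The 2 genes that were higher in Sos1KO than in Sos2KO cells but lower in Sos1/2DKO than in WT cells were Sos2 itself and Snapc1, which encodes a subunit of the small nuclear RNA activating complex and was singled out after its values were seen. Snapc1 had 6.93, 6.72 and 7.40 in Sos1KO cells, against 6.04, 5.81 and 5.82 in Sos2KO cells (1.13, SE 0.28, adjusted p = 0.0406). It had 5.42, 6.62 and 5.54 in Sos1/2DKO cells, against 6.86, 7.14 and 7.08 in WT cells (-1.16, adjusted p = 0.0276). Every array of both groups that carry the Sos2 deletion was thus below every array of both groups that do not. RefSeq places both genes on chromosome 12.

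The median difference between Sos1/2DKO and WT was -0.67 for the lower genes and 0.33 for the higher genes, against 0.05 over all genes. It was below 0 for 92.1% of the lower genes, against 42.6% of all genes, and above 0 for 78.2% of the higher genes, against 57.4%. With each pair of groups fitted alone, 187 genes (0.959%) were lower and 389 (1.99%) higher in Sos1KO than in Sos2KO cells. Of these, 59 lower genes (31.6%) and 34 higher genes (8.74%) were called the same way between Sos1/2DKO and WT cells, where 2.75% and 1.08% of all genes were. The Sos1/2DKO mean was nearer to Sos1KO than to Sos2KO for 480 of the 546 higher and 280 of the 290 lower genes, and for 61.2% of all genes. The higher and lower genes were chosen by the same Sos1KO and Sos2KO means, which can move that share, so nothing is read from it.

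Of the 23 measured replication and E2F genes, 19 were called lower in Sos1/2DKO than in WT cells, among them all 6 fallen genes. Over all genes, 4.16% were called lower there. Rrm2 differed by -1.73 there and Cdt1 by -1.35. Also called lower there were Fosl1 (-1.38), Etv4 (-1.16), Shmt2 (-1.32), Psat1 (-1.22) and Crabp1 (-2.71). Chodl (3.17), Mest (2.92), Igfbp2 (3.43), Npr3 (1.86) and Ogn (1.51) were called higher there. For other genes the Sos1/2DKO arrays gave no call. Lss differed by -0.24 between Sos1/2DKO and WT cells, Cox4i1 by 0.09, Mfn2 by 0.27, Sfrp1 by 0.01, Lyz2 by 0.04 and Lilrb4a by -1.89. Foxp2 differed by 2.42 there (adjusted p = 0.0595).

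**Figure D5:**
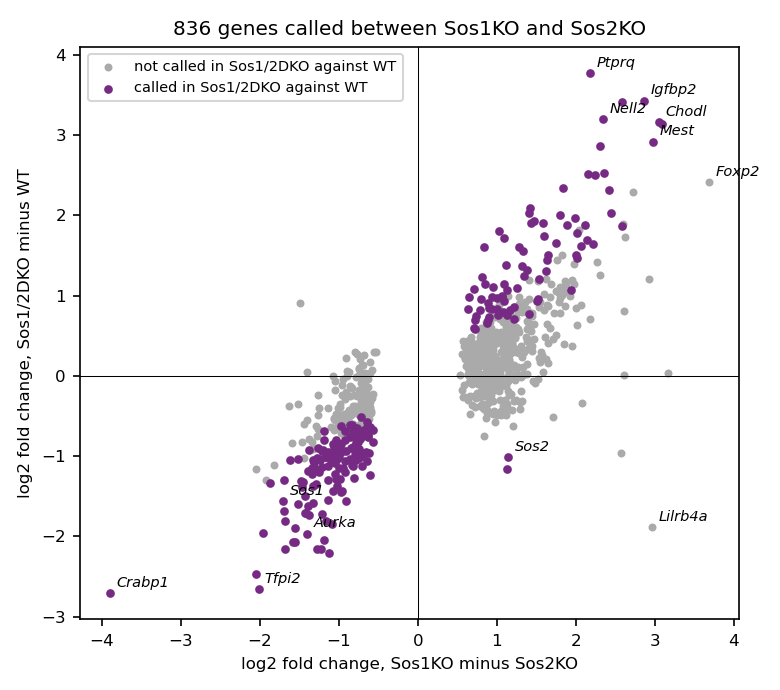
Log2 fold change Sos1KO minus Sos2KO (horizontal) against Sos1/2DKO minus WT (vertical) for the 836 called genes; purple genes were also called between Sos1/2DKO and WT cells. Of the 290 lower genes, 267 lie below 0 on the vertical axis, and among the higher genes Lilrb4a and Sos2 lie below 0 there.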

How the data were processed

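The deposited value table holds log2 RMA levels of 29129 probe sets on 12 Affymetrix arrays, and per the submitters' processing notes the authors used RMA in R 3.6.3. The genome build of the arrays is not given in the sources used here. The platform annotation gave 19572 probe sets 1 gene symbol and none several, and 9557 were not named and stayed out. Where a gene had more than 1 probe set (55 genes), that with the highest mean level was used, leaving 19505 genes. The log2 fold changes of the authors' deposited tables, which set each knockout against WT, equal the differences of these group means to within 6.22e-09.

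The model, in limma 3.58.1 (R 4.3.3), gave each group its own mean, used all 12 arrays with 8 residual degrees of freedom, and moderated the variances with eBayes. Benjamini-Hochberg adjustment ran over all genes, and a call means an adjusted p under 0.05. Precision is limited by having 3 arrays per group.

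The comparison, the 30 pathway lists and the 12 marker lists (712 of 788 members measured) were chosen with earlier results of these data known. Named genes are Sos1 and Sos2, the 14 highest and 14 lowest called genes whose arrays do not overlap, leaving out predicted genes, receptor segments and small RNAs, and up to 6 called members per list, or the member with the smallest p. Spi1, Lilrb4a and histone genes follow from this rule. Further members are named as called in Sos1/2DKO cells or as examples after their values were seen. As a floor for dim genes, the 75th percentile of the array's 5222 control probe sets in introns was used. Alternatives covered normalization, probe set choice, a filter on dim genes, array weights, the prior, covariates, batches and left-out arrays.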

Additional observations from a re-analysis of the deposited data

Results flagged for a closer look

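Control probe sets outside the gene comparisons read higher on some arrays than on any WT array. The poly-A control Dap read 9.29 on Sos1KO replicate 3 and 8.16, 8.29 and 6.01 on Sos2KO replicates 1, 2 and 3, where the highest WT array read 3.98. The high-GC background controls read 8.74 and 8.89 on Sos2KO replicates 1 and 2, where the highest WT array read 7.84. The hybridisation controls BioB, BioC and BioD averaged 10.98 on Sos2KO replicate 1 and 10.96 on Sos2KO replicate 2 (10.05 on the highest WT array). Both high-background arrays belong to the Sos2KO group, and the part of these readings in the gene differences was not tested beyond the terms and left-out arrays reported.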

How the results depend on the processing

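Of 836 calls between Sos1KO and Sos2KO, counts within 1.5 times that number came from the groups fitted alone (576), cyclic loess (909), median centring (660), a trended robust prior (830), a filter on dim genes (943) and the fit with replicate number as a block (709). Taking all probe sets gave 522, array weights 2540, an embryo sex term 300, the high-GC background term 1 and the macrophage term 0. The planned Dap split gave 322 as a term, 542 within the Dap-positive and 0 within the other arrays. The gap split, chosen after seeing the data, gave 12 as a term and 182 within the Dap-positive arrays, and leaving out Sos2KO replicates 1 and 2 together, also chosen then, gave 0. A threshold of 0.25, as the authors used, gave 4294, and the 2-fold limit 418. Leaving out 1 array gave 3 to 1870. Where 1 array is left in a group it is assumed to vary like the others. The cause of these moves was not tested.

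Between Sos1/2DKO and WT, 1158 calls became 404 with the sex term, 3829 at 0.25, 632 with the 2-fold limit and 268 to 1504 when 1 array was left out.

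Of 77 called named genes, 67 remained called with the replicate block, 74 under loess, 64 under centring, 33 with the planned Dap term, 1 with the high-GC term and 0 with the macrophage term, and 0 to 69 with 1 array left out. Same-numbered Sos1KO and Sos2KO arrays deviated from their group means with correlations of -0.10, 0.05 and 0.15. Differently numbered arrays of these groups gave -0.16 to 0.14. With so few arrays per group, these correlations cannot decide whether same-numbered samples shared a litter or a run. With the macrophage term Sos1 differed by -1.78 (adjusted p = 0.119), and with the high-GC term Sos2 differed by 0.84 (adjusted p = 0.349).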
